A study of Mus musculus with 4 samples.

Results

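The m6A methyltransferase genes were followed here as a set of 9, Mettl3, Mettl14, Mettl16, Wtap, Virma, Zc3h13, Rbm15, Rbm15b and Cbll1, chosen by gene symbol from the 25265 genes of the deposited count table. All 9 symbols were found, each once, and all 9 passed the filter on low counts. The samples were whole testes of C57BL/6 mice at postnatal day 56, with total RNA depleted of ribosomal RNA, sequenced as 2 control libraries and 2 libraries with the label Ythdf2-vKO. The series title describes the mutants as germ cell-specific for Ythdf2, and the Cre driver, the deleted segment and any allele that the control mice carried are not given in the sources used here. The labels do not say whether each library came from its own animal, so the tests below measure the spread between libraries, which may be technical.

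N6-methyladenosine (m6A) is the most common internal modification of messenger RNA. It is written in the nucleus by a complex whose core is a heterodimer of METTL3 and METTL14, and to which WTAP, VIRMA, ZC3H13, RBM15 or RBM15B, and CBLL1 attach as the regulatory part. Readers of the YTH family, YTHDF2 among them, bind the mark, and YTHDF2 directs marked transcripts to deadenylation and decay. In the mouse male germ line, early loss of METTL3 or METTL14 is known to disturb the maintenance and differentiation of spermatogonia. METTL16, listed with the 9, is a separate enzyme that acts alone on a small nuclear RNA of the spliceosome and on the Mat2a transcript.

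The 3 methyltransferase-fold members differ in the motif of their catalytic site, and the coding sequence around it is shown because it separates the active enzymes from the partner that lacks activity. Capitals mark the 4 codons of the motif, read 5′ to 3′ on the coding strand of the longest coding transcript in GENCODE M21 (mouse build GRCm38), with 36 bases on either side in lower case.
Mettl3: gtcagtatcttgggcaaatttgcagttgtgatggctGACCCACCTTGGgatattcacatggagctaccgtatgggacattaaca
Mettl14: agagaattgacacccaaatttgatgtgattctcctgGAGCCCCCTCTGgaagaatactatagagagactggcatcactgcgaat
Mettl16: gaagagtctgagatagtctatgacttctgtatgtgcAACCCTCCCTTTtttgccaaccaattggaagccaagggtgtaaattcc
In Mettl3 the capitals are codons 395 to 398 of 580, in exon 6 of 11 (chromosome 14, 52297581 to 52297592, minus strand), and encode the motif known as DPPW, which holds the methyl donor and the target adenosine. In Mettl14 they are codons 192 to 195 of 456, in exon 7 of 11 (chromosome 3, 123374805 to 123374816, minus strand), and encode EPPL, in a domain that supports METTL3 and binds RNA without catalysis. In Mettl16 they are codons 184 to 187 of 593, in exon 5 of 11 (chromosome 11, 74792283 to 74792294, plus strand), and encode NPPF, the catalytic motif of this separate enzyme. Gene-level counts cannot tell whether reads came from these exons.

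None of the 9 genes passed the test for a genotype difference. Under the quasi-likelihood test of edgeR, adjusted by Benjamini-Hochberg over the 21132 genes tested, 0 of the 9 passed an adjusted p of 0.05, with adjusted p values from 0.325 to 0.994. A DESeq2 Wald test on the same counts also passed 0 of the 9. Over all genes tested, 0.393% were called, 0.279% higher and 0.114% lower in the Ythdf2-vKO-labelled libraries. At an unadjusted p under 0.05 there was 1 of the 9, Wtap, against 14.1% of all genes tested. The log2 fold change, always given as Ythdf2-vKO over control, was above 0 in 7 of the 9, against 50.3% of all genes, and had a median of 0.09 over the 9 and of 0.003 over all genes. Without control replicate 2 the median over the 9 was -0.001. The median absolute log2 fold change was 0.106 over the 9 and 0.207 over all genes, which include many of lower count.

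The fit gave a range for each difference, under its own scaling and without an offset for GC content. The 95% interval of the log2 fold change lay within -1 and 1, that is within a doubling in either direction, for 9 of the 9 genes and for 68.7% of all genes tested. In mean CPM the 9 ran from percentile 52.75 (Mettl3) to percentile 81.37 (Virma) of all genes tested, so they were not among the genes of low count. The lowest bound among the 9 was -0.39, a fold of 0.765, and the highest was 0.68, a fold of 1.6. These intervals are per gene and were not adjusted for the number of genes. The counts behind them ran from 236 to 1924 reads per gene and library, for which counting error alone is 6.51% and 2.28%, and the common biological coefficient of variation of the fit was 13.5%.

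**Figure D1:**
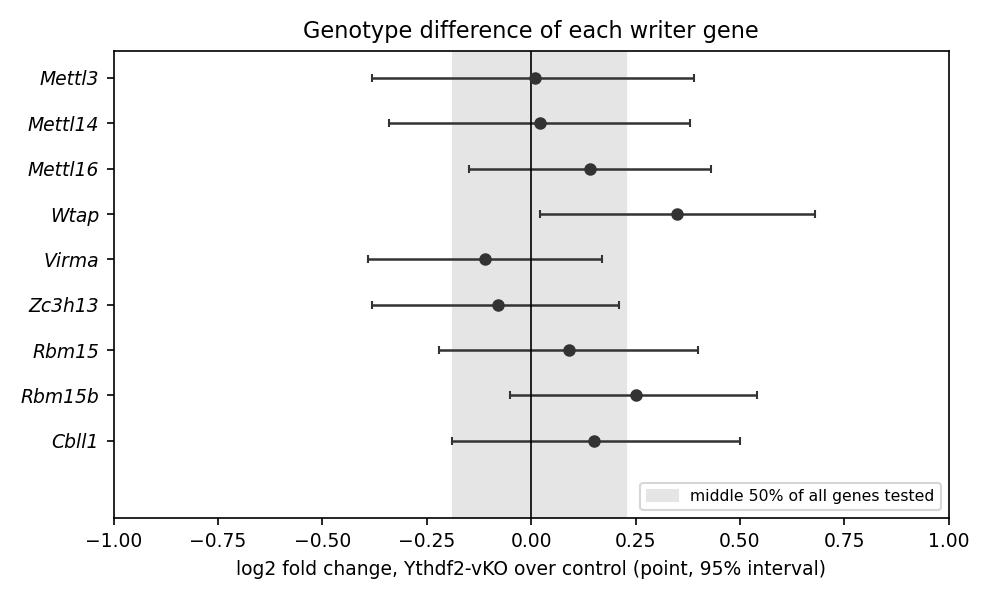
Log2 fold change of Ythdf2-vKO over control for each of the 9 writer genes (point) with its 95% interval (bar) from the edgeR fit on 4 libraries. The grey band spans the middle 50% of all 21132 genes tested, -0.187 to 0.228, and the interval of Wtap alone among the 9 begins above 0.

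Several facts of the whole series bear on these values. Total gene counts ran from 24862518 to 29561182 per library. Ythdf2 itself did not fall with the label: the controls held 1193 and 1604 counts of it and the Ythdf2-vKO-labelled libraries 1774 and 1807. Groups are therefore called by label throughout, and a count over the whole gene does not check a deletion of part of it. Transcript GC content was set against the signed departure of each gene's log2 level in a library from its mean over all libraries. Over 17817 genes the Spearman correlation was 0.024 in control replicate 1, -0.399 in control replicate 2, and 0.253 and 0.189 in the Ythdf2-vKO-labelled libraries. Markers of testis cell types were all found, none at 0 in the mean, and 1 marker, of Sertoli cells, was called. Of 6 Sertoli cell markers 6 had a positive log2 fold change and 1 was called, with summed levels of 804 and 863 CPM in the controls, against 1150 and 1010 CPM in the Ythdf2-vKO-labelled libraries. Of 6 Leydig cell markers 6 were positive and 0 called, with sums of 249 and 304 CPM against 412 and 300 CPM. Of 5 erythrocyte markers 4 were tested, of which 4 were positive and 0 called, with a median log2 fold change of 0.76 and sums of 26.8 and 32.5 CPM against 42.2 and 39.3 CPM. Spermatogonial markers were positive in 6 of 6, with 0 called and sums of 93.9 and 91.3 CPM against 111 and 99.9 CPM. Of 5 elongating spermatid markers 5 had a negative log2 fold change and 0 were called, with sums of 6280 and 5210 CPM against 4740 and 4850 CPM. The other lists, of spermatocytes, round spermatids, peritubular myoid cells, macrophages and endothelial cells, had signs of both kinds and 0 called. In whole testis, fewer cells of a type and less RNA per cell cannot be told apart, and the part of these differences in the values of the 9 genes was not tested.

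Mettl3 and Mettl14, the catalytic core, were the members with the lowest CPM per library, without division by length, and the smallest differences between genotypes. Per kilobase, whether both were the lowest depended on the length used, as described below. Mettl3 (ENSMUSG00000022160, chromosome 14, 52294841 to 52305128, minus strand) had 236 and 355 counts in the controls, against 297 and 296 in the Ythdf2-vKO-labelled libraries. In CPM, the count relative to the TMM-scaled library total, this was 10.1 and 11.8 CPM in the controls, against 11.1 and 10.97 CPM in the Ythdf2-vKO-labelled libraries. The controls were the lowest and the highest of the 4, with the mutant-labelled libraries between them. The log2 fold change was 0.01 (SE 0.18, 95% interval -0.38 to 0.39). Mettl14 (ENSMUSG00000028114, chromosome 3, 123368297 to 123386108, minus strand), the RNA-binding partner that stabilises METTL3, had 314 and 390 counts in the controls, against 378 and 343 in the Ythdf2-vKO-labelled libraries. Its levels were 13.4 and 13.0 CPM against 14.1 and 12.7 CPM, so that the control values lay inside the range of the other group. For Mettl14 the log2 fold change was 0.02 (SE 0.17, 95% interval -0.34 to 0.38). The sign of both changed with the libraries used. Without control replicate 1 the log2 fold change of Mettl3 was -0.11, and without Ythdf2-vKO replicate 1 that of Mettl14 was -0.06. With an offset for GC content it was 0.017 for Mettl3 and 0.105 for Mettl14, beside -0.047 for Virma and -0.088 for Zc3h13. Under library totals alone it was 0.067 for Mettl3 and 0.087 for Mettl14, beside -0.042 for Virma and -0.019 for Zc3h13. Which members had the smallest differences thus depended on the processing.

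Mettl3 shares exon sequence with a neighbour. Tox4, on the opposite strand, overlaps 933 nt of its exons in M21, and held 2549 and 3125 counts in the controls, against 2386 and 2331 in the Ythdf2-vKO-labelled libraries. The libraries were directional, but whether the counting used strand is not given in the sources used here, so the Mettl3 counts are uncertain to that extent.

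The pattern of each core gene across the 4 libraries was set against 17826 other genes with a mean of at least 1 CPM, by the root mean square difference of log2 CPM after centring each gene on its own mean. The 3 genes nearest to Mettl3 were Ranbp6 at 0.00671, Srsf3 at 0.0105 and Rpl7a at 0.0108. The 3 nearest to Mettl14 were Kdelc2 at 0.00445, Slc7a6os at 0.00582 and Icmt at 0.00806. Mettl3 and Mettl14 were 0.109 apart on this measure, which put Mettl14 at place 2962 of the 17826 from Mettl3. With only 4 libraries and differences this small, nearness describes these libraries and nothing further.

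Mettl16, the separate methyltransferase, stood above the core pair in reads. Mettl16 (ENSMUSG00000010554, chromosome 11, 74770830 to 74828525, plus strand) was at 31.5 and 32.5 CPM in the controls, against 35.97 and 34.44 CPM in the Ythdf2-vKO-labelled libraries. Both of the latter were above both controls, by a log2 fold change of 0.14 (SE 0.13, 95% interval -0.15 to 0.43, edgeR adjusted p 0.713). Its transcript target Mat2a, which encodes an S-adenosylmethionine synthetase, was at 109.9 and 114.9 CPM in the controls, against 132.6 and 111.6 CPM in the Ythdf2-vKO-labelled libraries. One library of the latter stood above the rest and the groups overlapped, with a log2 fold change of 0.12 (SE 0.13, edgeR adjusted p 0.741).

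Wtap showed the largest difference of the 9. WTAP is the adaptor that brings the METTL3-METTL14 core to nuclear speckles and joins it to the other subunits. Wtap (ENSMUSG00000060475, chromosome 17, 12966796 to 12994169, minus strand) had 384 and 562 counts in the controls, against 624 and 582 in the Ythdf2-vKO-labelled libraries. Its levels were 16.4 and 18.7 CPM in the controls, against 23.3 and 21.6 CPM in the Ythdf2-vKO-labelled libraries, with no overlap between the groups. By the fit, the log2 fold change was 0.35 (SE 0.15, 95% interval 0.02 to 0.68), at an unadjusted p of 0.0401 and an edgeR adjusted p of 0.325, so it did not pass. In the authors' deposited table the log2 fold change was also 0.35 (SE 0.19), with an adjusted p of 0.466. The value was 0.25 without control replicate 1 and 0.45 without control replicate 2. Over the 12 other fits on all 4 libraries its adjusted p ranged from 0.0804, under a GC offset plus the replicate block, to 0.466. Its longest transcript has a GC content of 39.6%, the lowest of the 9. With an offset for GC content the log2 fold change of Wtap was 0.446. Wtap has processed pseudogenes in M21, of which Gm14292 is 99.3% identical to it over 456 nt, Gm9068 94.7% over 456 nt and Gm7381 96.3% over 300.0 nt. None of the 3 is among the genes of the table, and how reads matching both were counted is not given in the sources used here.

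The large scaffold Virma and the zinc-finger protein Zc3h13 were the only 2 of the 9 with a negative log2 fold change in the fit on all 4 libraries, and neither passed. VIRMA is known for directing methylation towards the stop codon and the untranslated region after it, and ZC3H13 for holding the regulatory part in the nucleus. Virma (ENSMUSG00000040720, chromosome 4, 11485958 to 11550684, plus strand) was the most read of the 9, at 64.0 and 64.2 CPM in the controls, against 63.0 and 56.1 CPM in the Ythdf2-vKO-labelled libraries. The controls were nearly equal and both were above the other group, where replicate 2 was the low library. Its log2 fold change was -0.11 (SE 0.13, 95% interval -0.39 to 0.17, edgeR adjusted p 0.777). Without Ythdf2-vKO replicate 2 it was -0.03. Zc3h13 (ENSMUSG00000022000, chromosome 14, 75284373 to 75344426, plus strand) was at 32.1 and 32.3 CPM in the controls, against 31.3 and 29.5 CPM in the Ythdf2-vKO-labelled libraries. The 4 libraries stood in the same order as for Virma, with replicate 2 of the Ythdf2-vKO-labelled libraries the lowest for both. For Zc3h13 the log2 fold change was -0.08 (SE 0.14, 95% interval -0.38 to 0.21, edgeR adjusted p 0.84).

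The paralogs Rbm15 and Rbm15b, RNA-binding proteins that recruit the complex to its targets, both had positive log2 fold changes that did not pass. Rbm15 (ENSMUSG00000048109, chromosome 3, 107325421 to 107333673, minus strand) was at 38.7 and 32.1 CPM in the controls, against 37.6 and 37.7 CPM in the Ythdf2-vKO-labelled libraries. Control replicate 2 stood below the other 3 libraries, which lay close together. Its log2 fold change was 0.09 (SE 0.14, 95% interval -0.22 to 0.40), and without control replicate 2 it was -0.04. Rbm15b (ENSMUSG00000074102, chromosome 9, 106880918 to 106887428, minus strand) was at 28.9 and 26.9 CPM in the controls, against 34.3 and 31.8 CPM in the Ythdf2-vKO-labelled libraries, without overlap. Its log2 fold change was 0.25 (SE 0.14, 95% interval -0.05 to 0.54), at an edgeR adjusted p of 0.46. With an offset for GC content it was 0.11, and the GC content of its transcript, 56.4%, is the highest of the 9. Rbm15b overlaps 75 nt of Dcaf1 exons on the opposite strand and 14 nt of Manf exons on its own strand.

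Cbll1 encodes HAKAI, a RING-type ubiquitin ligase that is a stable part of the complex. Cbll1 (ENSMUSG00000020659, chromosome 12, 31484829 to 31499616, minus strand) was at 29.1 and 22.1 CPM in the controls, against 28.4 and 28.5 CPM in the Ythdf2-vKO-labelled libraries. Control replicate 2 was again the low library, and control replicate 1 was the highest of the 4. The log2 fold change was 0.15 (SE 0.16, 95% interval -0.19 to 0.50, edgeR adjusted p 0.728). It was 0.355 without control replicate 1 and -0.03 without control replicate 2, so its sign rested on the latter library. The antisense gene Gm29542 overlaps 704 nt of its exons and is not among the genes of the table.

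**Figure D2:**
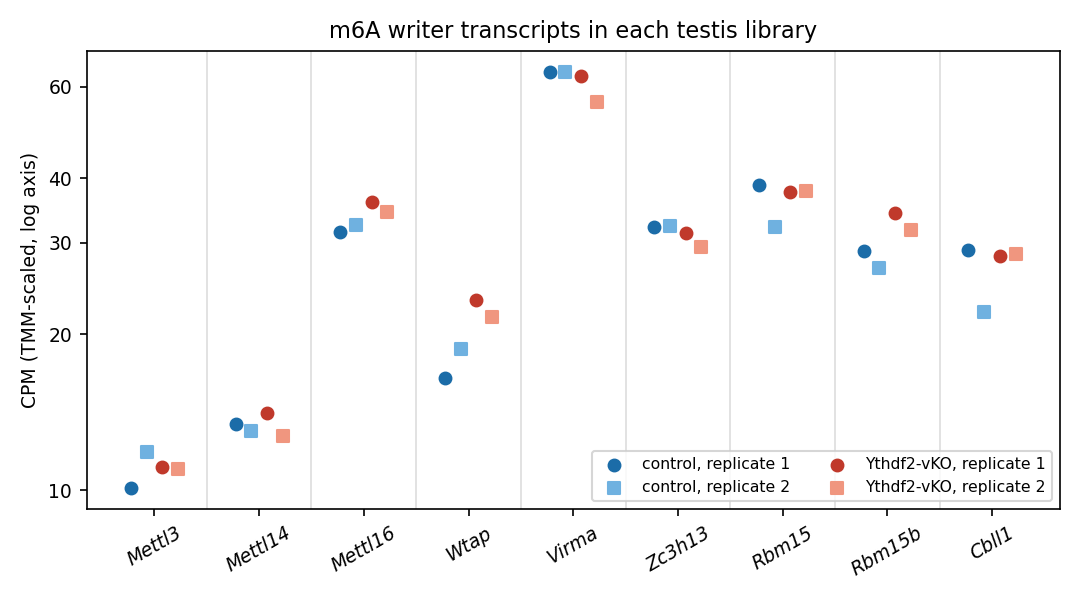
CPM of each writer gene on a log axis, with 1 point per library, blue for control and red for Ythdf2-vKO, circles for replicate 1 and squares for replicate 2. The groups are apart for Mettl16, Wtap, Virma, Zc3h13 and Rbm15b, while control replicate 2 is the low library for Rbm15 and Cbll1.

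In 5 of the 9 genes the groups did not overlap, a share near the background of 45.3% over all tested genes. Of these 5, Mettl16, Wtap and Rbm15b were higher and Virma and Zc3h13 lower in the Ythdf2-vKO-labelled libraries. Summed over the 9 genes, the levels were 264 and 254 CPM in the controls, against 279 and 263 CPM in the Ythdf2-vKO-labelled libraries. No library was low for every member. Control replicate 1 was the lowest library for 3 genes (Mettl3, Mettl16 and Wtap), control replicate 2 for 3 (Rbm15, Rbm15b and Cbll1) and Ythdf2-vKO replicate 2 for 3 (Mettl14, Virma and Zc3h13). Ythdf2-vKO replicate 1 was the lowest for 0 genes and the highest for 4.

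Levels can be compared between genes only per length, and the order of the 9 depended on which length was used. Divided by the union of all annotated exons, Virma was highest at 8.66 ± 0.542 CPM per kilobase (SD over the 4 libraries), followed by Cbll1 at 6.74 ± 0.819. Zc3h13 (4.98 ± 0.207), Rbm15 (4.92 ± 0.403) and Rbm15b (4.68 ± 0.501) came next and did not differ beyond their spread, since their ranges over the libraries overlapped. Below them were Wtap at 3.20 ± 0.487, Mettl16 at 2.43 ± 0.145, Mettl3 at 2.17 ± 0.141 and Mettl14 at 1.80 ± 0.0823, and of these neighbours only Mettl16 and Mettl3 overlapped in range. On this scale the 2 subunits of the catalytic core were the lowest of the 9.

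That order does not hold for a shorter length. M21 annotates Mettl16 with a transcript of 12584 nt beside a coding one of 2073 nt, Mettl14 with 7197 nt beside 2741 nt, and the union of Mettl3 exons is 5076 nt beside a coding transcript of 2025 nt. Divided by the length of the transcript with the longest coding sequence, Mettl16 was highest at 16.2 ± 0.963 CPM per kilobase, above every value of the others. Wtap (9.76 ± 1.48), Virma (9.41 ± 0.589), Rbm15 (8.42 ± 0.689) and Cbll1 (6.93 ± 0.842) followed, and each overlapped its neighbour in range. Mettl3 at 5.43 ± 0.353, Zc3h13 at 5.10 ± 0.212, Mettl14 at 4.86 ± 0.223 and Rbm15b at 4.68 ± 0.501 also overlapped from neighbour to neighbour. Divided by the longest transcript of any kind, Virma was highest at 9.41 and Mettl14 lowest at 1.85 CPM per kilobase. Counts per gene do not show which transcript was present, so the level of Mettl16 relative to the others ranged from near the bottom to the top with the length chosen.

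**Figure D3:**
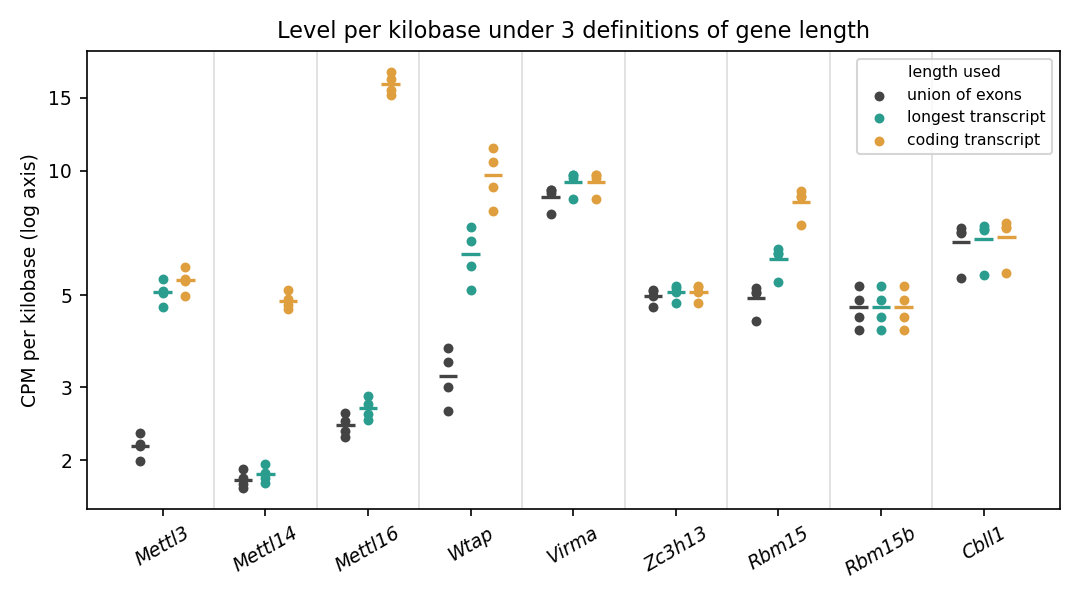
CPM per kilobase on a log axis for each writer gene, with 1 point per library and a bar at the mean of 4, under 3 lengths: the union of exons, the longest transcript and the coding transcript. Mettl16 moves from 2.43 to 16.2 between the first and the last, while Rbm15b stays at 4.68.

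Ratios within a library do not depend on its scaling, but those given here carry no offset for GC content. Mettl3 over Mettl14 per kilobase of coding transcript was 0.02 and 0.30 on the log2 scale in the controls, against 0.09 and 0.22 in the Ythdf2-vKO-labelled libraries, or a ratio of 1.02 to 1.23. The control values lay on both sides of the others, so the spread within control covered the other group. Per kilobase of exon union the same ratio was 1.099 to 1.33, and per kilobase of the longest transcript 2.51 to 3.03. Rbm15 over Rbm15b per kilobase of exon union was 0.23 and 0.07 on the log2 scale in the controls, against -0.06 and 0.06 in the Ythdf2-vKO-labelled libraries, or a ratio of 0.962 to 1.17. Per kilobase of the longest transcript that ratio was 1.197 to 1.461, and per kilobase of coding transcript 1.645 to 2.007, so whether the paralogs stood level depended on the length used. The groups did not overlap, but 0.07 and 0.06, the nearest values of each, were close beside the spread within a group, and no test was made. The GC content of the longest transcript was 44.2% for Rbm15 and 56.4% for Rbm15b. With an offset for GC content the log2 fold change was 0.151 for Rbm15 and 0.107 for Rbm15b, against 0.09 and 0.246 without it. The part of the GC trend of the libraries in this ratio was not tested.

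The GC content of the longest annotated transcript, which is not the coding one for every gene, ran from 39.6% in Wtap to 56.4% in Rbm15b, with a median of 44.4% over the 9 and 48.9% over all genes tested. The pentamer GGACT, the most common form of the m6A consensus, was counted on the sense strand of the longest transcript, without overlap with itself. All 9 transcripts held it, with 4 matches in Mettl3, 5 each in Mettl14, Rbm15 and Cbll1, 6 each in Wtap and Rbm15b, 7 each in Virma and Zc3h13 and 14 in Mettl16. It was also present in 96.2% of the 13207 tested genes with a transcript of at least 2000 nt. Per kilobase the matches ran from 0.695 in Mettl14 to 1.88 in Wtap, and 6 of the 9 lay above the median of 1.02 over all genes tested. A match is a string of letters and does not show methylation.

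The rest of the m6A pathway was read from the same fit in 7 lists holding 37 genes, of which 35 were tested. None of the 35 passed an adjusted p of 0.05 by edgeR, against the background of 0.393%, and 2 had an unadjusted p under 0.05, against 14.1%. A DESeq2 Wald test also called 0. In these 35, 21 log2 fold changes were above 0 and 14 below, with a median of 0.099. Mat1a, at 0 and 1 counts in the controls, against 8 and 4 in the Ythdf2-vKO-labelled libraries, did not pass the filter on low counts, and Cbll2 was not analysed here.

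The 2 genes with an unadjusted p under 0.05 were a reader and a methyltransferase. Ythdf2, the reader named in the labels, was at 51.0 and 53.5 CPM in the controls, against 66.3 and 67.0 CPM in the Ythdf2-vKO-labelled libraries, higher in both of the latter. Its log2 fold change was 0.35 (SE 0.13), at an edgeR adjusted p of 0.238. Ythdf2 passed in only 1 of the 12 other fits on all 4 libraries. That was a GC offset plus the replicate block, at 0.40 with an adjusted p of 0.0333. This fit called 326 genes higher and 352 lower of the 21132 tested, against 59 and 24 in the main fit. In the remaining fits its adjusted p ran from 0.0657, under the replicate block alone, to 0.292 under the DESeq2 Wald test. Mettl4, a relative of METTL3 and METTL14 that methylates small nuclear RNA, was at 36.02 and 38.66 CPM in the controls, against 27.7 and 29.2 CPM in the Ythdf2-vKO-labelled libraries, lower in both of the latter. Its log2 fold change was -0.39 (SE 0.14, 95% interval -0.69 to -0.10), at an edgeR adjusted p of 0.225, and it did not pass in any of the 12 other fits on all 4 libraries. In the authors' deposited table it was -0.39 with an adjusted p of 0.278.

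Among the 5 YTH readers the log2 fold change ran from -0.15 in Ythdc2, a meiotic RNA helicase, to 0.35 in Ythdf2, and 3 of 5 were above 0. The 8 other m6A-binding proteins ran from -0.22 in Fmr1 to 0.23 in Prrc2a, with a median of 0.002. Prrc2a was at 805 and 428 CPM in the controls, against 791 and 658 CPM in the Ythdf2-vKO-labelled libraries, so control replicate 2 was the low library. Of the 2 erasers, which remove the methyl group, Fto had 0.10 and Alkbh5 0.20, and for both the groups overlapped. Alkbh5 was at 76.8 and 54.7 CPM in the controls, against 79.5 and 71.0 CPM in the Ythdf2-vKO-labelled libraries, again with control replicate 2 lowest.

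The list of other N6-adenosine methyltransferases, which includes the cofactor Trmt112, ran from -0.39 in Mettl4 to 0.32 in Mettl5, which acts on ribosomal RNA. Of its 5 genes, 4 were above 0. For S-adenosylmethionine supply, 5 of 6 genes were tested, from -0.12 in Ahcy, which clears the product inhibitor of methylation, to 0.24 in Mat2b, a regulatory subunit of the synthetase. Relatives and partners of the complex ran from -0.19 in Cebpz, known to bring METTL3 to promoters, to 0.20 in Cpsf6, a cleavage and polyadenylation factor, with 6 of 7 tested. The 4 core genes of the exon junction complex, known to keep methylation away from splice junctions, ran from -0.03 in Magoh to 0.22 in Eif4a3. The 95% interval included 0 for every tested gene of these 4 lists except Mettl4.

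**Figure D4:**
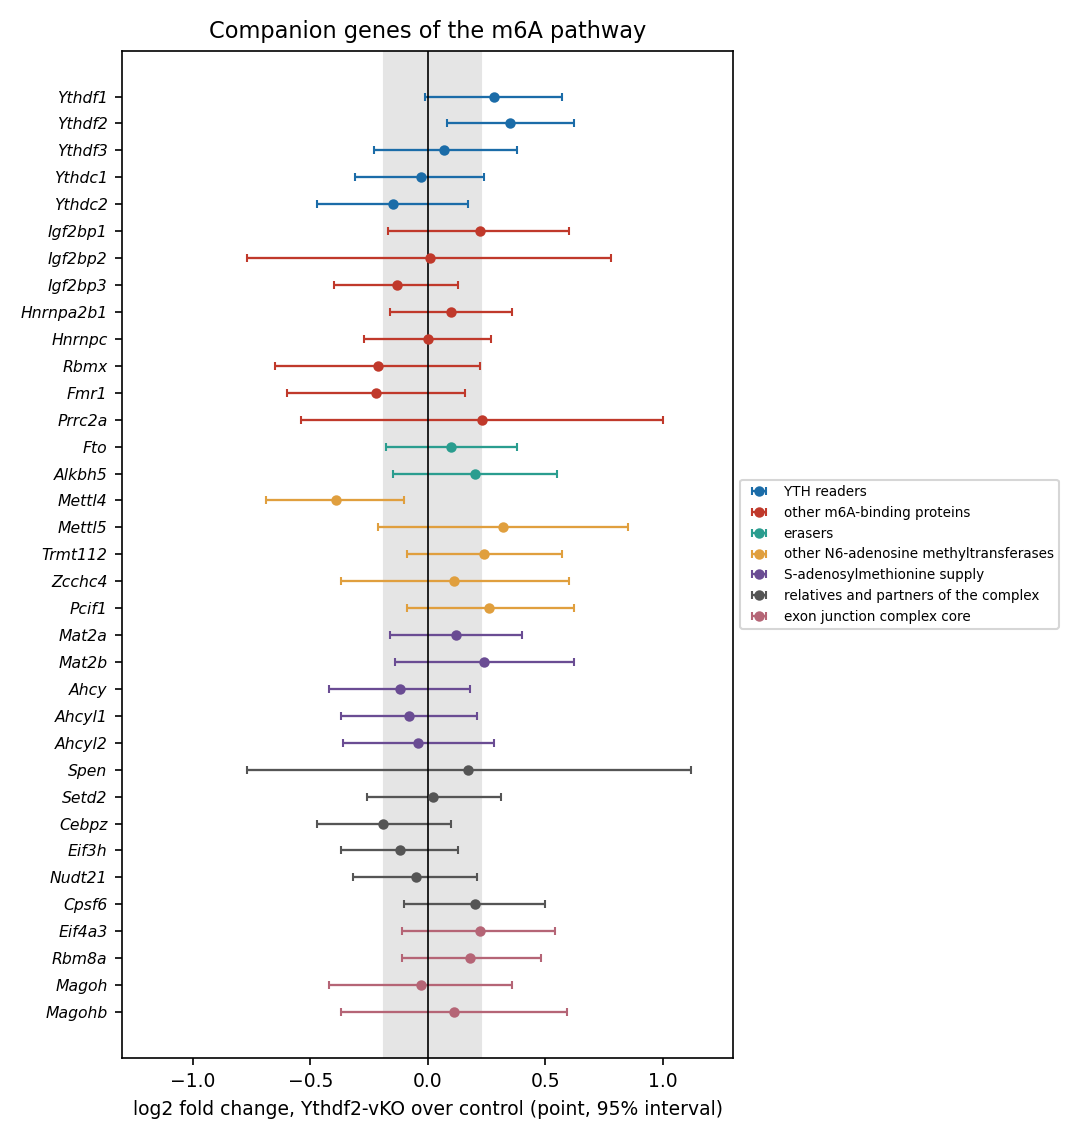
Log2 fold change of Ythdf2-vKO over control (point) with its 95% interval (bar) for the 35 tested companion genes, coloured by list, from the edgeR fit on 4 libraries. The grey band spans the middle 50% of all genes tested, and the intervals of Ythdf2 and Mettl4 are those that leave out 0.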

How the data were processed

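The authors deposited 1 table with raw counts for every gene in each library, and no gene in it has under 10 counts over the 4 libraries. Beside them stand, per the file headers, a mean normalized signal, a log2 fold change and its error, and a p-value before and after adjustment, under column names that DESeq2 uses. HISAT2 2.1.0 and HTSeq 0.6.1p1 are named, without roles, per the submitters' processing notes. The genome build, the use of strand and the treatment of reads with several matches are not given in the sources used here. The first header name holds a tab inside quotes, so columns were read by position. Recomputing the deposited mean from the counts gave a largest relative difference of 4.93e-10.

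Counts were fitted with edgeR 4.0.16 (limma 3.58.1, R 4.3.3) on all 21132 genes kept by filterByExpr, with TMM scaling, genotype alone, robust quasi-likelihood and F tests (two-sided). Benjamini-Hochberg adjustment covered all genes tested, and genes were called under 0.05. The standard error is the absolute log2 fold change over the square root of F, and the prior count was 0.125. Exact permutation of 2 against 2 libraries cannot go below 0.333 and was not used. Lengths, coordinates, GC content and sequences came from GENCODE M21, in which 25261 of the 25265 identifiers were found. Alternatives were other scalings and filters, DESeq2 1.42.0, no robust estimation, offsets for GC content and length, the replicate block and leaving out each library. The fit was tested on simulated data.

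The members, lists and alternatives were chosen with earlier results of these data known. All 9 members were named, and of each companion list the genes at an unadjusted p under 0.05 and those with the highest and lowest log2 fold change, with the 3 genes most like Mettl3 and Mettl14. Mat2a, Mat1a and Trmt112 were named outside this rule, after their values were seen. Counts carry no molecular identifiers, so counting errors cover counting alone.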

Additional observations from a re-analysis of the deposited data

How the results depend on the processing

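With 2 libraries in a group, no call on a writer gene appeared under any of the 12 alternatives fitted on all 4 libraries, and 0 of the 9 were called in each. Over all genes, 59 were called higher and 24 lower. Library totals alone gave 181 and 37, the DESeq2 Wald test 137 and 80, the GC offset 90 and 67, and a fit without robust estimation 15 lower. Higher genes were 71.1% of those calls. Their share was 83% when only library totals scaled the counts, 57.3% under the GC offset and 48.1% when the replicate block was added to it. Library totals alone moved the median over the 9 writer genes to 0.16 and that over all genes to 0.067. The length offset turned the log2 fold change of Mettl3 to -0.011 and that of Mettl14 to -0.009, and with the replicate block to -0.007 and -0.009. The cause was not tested.

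Both groups carry replicates 1 and 2. A correlation of 0.0913 over 17827 genes linked the deviations of libraries with 1 number, and with only 2 pairs no pairing was assumed. The replicate block gave 627 genes higher and 390 lower, 326 and 352 with the GC offset, and 201 and 139 with the length offset. Under that block plus the GC offset, 1 of the 35 tested companion genes, Ythdf2, was called, beside 326 and 352 of the 21132 genes tested.

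Leaving out 1 library at a time leaves 1 library in a group, assumed to vary like the others, and no calls were made. The median over the 9 genes ran from -0.001 to 0.107. The log2 fold change ran from -0.109 to 0.129 for Mettl3, -0.056 to 0.094 for Mettl14, -0.038 to 0.223 for Rbm15 and -0.032 to 0.355 for Cbll1. Mettl16, Wtap, Virma, Zc3h13 and Rbm15b kept their sign in every fit run. These are the genes whose groups did not overlap in CPM, so leaving out a library could hardly turn their sign. Their signs in those fits therefore restate the non-overlap and add nothing to it.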
